A study of Mus musculus with 12 samples.

Results

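The homeostatic microglia identity genes described here are 9 genes chosen from a list, Sall1, Csf1r, Cx3cr1, Gpr34, Tmem119, Selplg, Slc2a5, Olfml3 and Crybb1, out of the 55487 genes counted in this RNA-sequencing series. They were found by matching Ensembl identifiers to symbols in the GENCODE M21 annotation of the mouse genome GRCm38, and each symbol matched 1 identifier. Microglia are the resident macrophages of the brain. In the undisturbed brain they keep a characteristic programme of surface receptors and regulators, which is maintained by the cytokines CSF1 and IL-34 and by TGF-beta, and which sets them apart from blood-derived macrophages. Around amyloid plaques microglia are known to lower many of these genes while they raise lipid-handling and lysosomal genes, a state called disease-associated microglia.

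The sequenced cells were CD11b-positive cells, captured with magnetic beads from papain-digested cerebral cortex of 12 male mice. The 4 groups held 3 mice each and are called by strain and treatment, namely WT mice (C57BL/6J) given PBS vehicle (veh), WT mice given rh Bri2 BRICHOS R221E, App NL-G-F mice given veh and App NL-G-F mice given rh Bri2 BRICHOS R221E. The App locus of App NL-G-F mice holds humanized sequence and familial Alzheimer's disease mutations, so that amyloid forms without an added transgene, and rh Bri2 BRICHOS R221E is a recombinant human chaperone domain with a substituted residue. Intravenous injections began at an age of 9 months and numbered 24 over 12 weeks, at 10 mg/kg or as vehicle, and all mice were followed for a further 4 weeks without injections.

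Library totals were between 12433402 and 17889654 counts, so that 3 counts, taken as the detection limit, correspond to 0.168 to 0.241 counts per 1000000 (CPM). All 9 genes were far above this limit, and all were among the 15425 genes that passed the filter on low counts. CPM values below were scaled with TMM factors, which correct library totals for composition. The 10 microglia and macrophage markers, with Ptprc and Fcer1g among them, were detected in every library and summed to between 25403 and 43992 CPM. Markers of other cells were present as well. The 8 astrocyte markers summed to 427 to 603 CPM in WT veh mice, 428 to 781 CPM in WT BRICHOS mice, 1405 to 4509 CPM in App NL-G-F veh mice and 653 to 1887 CPM in App NL-G-F BRICHOS mice. The 8 oligodendrocyte markers summed to 9684 to 16954 CPM in WT veh mice and 3229 to 5651 CPM in App NL-G-F veh mice, and no marker of either list was at 0 in all libraries of a group.

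To compare the genes with each other, levels were divided by the summed length of each gene's exons. In WT veh mice Csf1r led with 1405 ± 62.4 CPM per kb (SD, n = 3), followed by Cx3cr1 with 1041 ± 53.4, Tmem119 with 742 ± 59.4, Selplg with 590.2 ± 38.6 and Gpr34 with 477 ± 39.4. Olfml3 with 235 ± 18.9 and Crybb1 with 203 ± 15 CPM per kb overlapped in their ranges, and Sall1 with 163 ± 9.83 and Slc2a5 with 133 ± 9.83 CPM per kb were lowest. Except for Olfml3 and Crybb1, the ranges of neighbours in this order did not overlap. In App NL-G-F veh mice Csf1r (1089 ± 11.7 CPM per kb) and Cx3cr1 (769.8 ± 30.6) still led. Gpr34 (369.7 ± 13.6), Selplg (361 ± 33.3) and Tmem119 (324 ± 50.6) could no longer be ordered, because the ranges of each neighbouring pair overlapped. Crybb1 had moved to the last place with 46.4 ± 0.716 CPM per kb, below Slc2a5 with 66.8 ± 1.59. The order depends on the length used for Selplg, which rises to the second place in WT veh mice, with 1089.6 CPM per kb, when its longest transcript is taken in place of all exons.

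The first question was how the identity genes of cortical microglia differ between the strains without the chaperone. In App NL-G-F veh mice 8 of the 9 genes were lower than in WT veh mice at an adjusted p-value under 0.05 and none was higher, while 16.9% of all tested genes were lower by the same rule. The largest falls were those of Crybb1, Tmem119 and Slc2a5, and Olfml3 alone did not pass the test. The same 8 genes had no overlap between the groups, which 25.3% of all tested genes showed in this direction. The median log2 fold change of the 9 genes was -0.71, against -0.02 for all tested genes. Together the 9 genes took 2.14 to 2.35% of all counts in WT veh mice and 1.36 to 1.46% in App NL-G-F veh mice. In bulk RNA a lower share of cells that express a gene and less of its RNA per cell cannot be told apart.

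**Figure D1:**
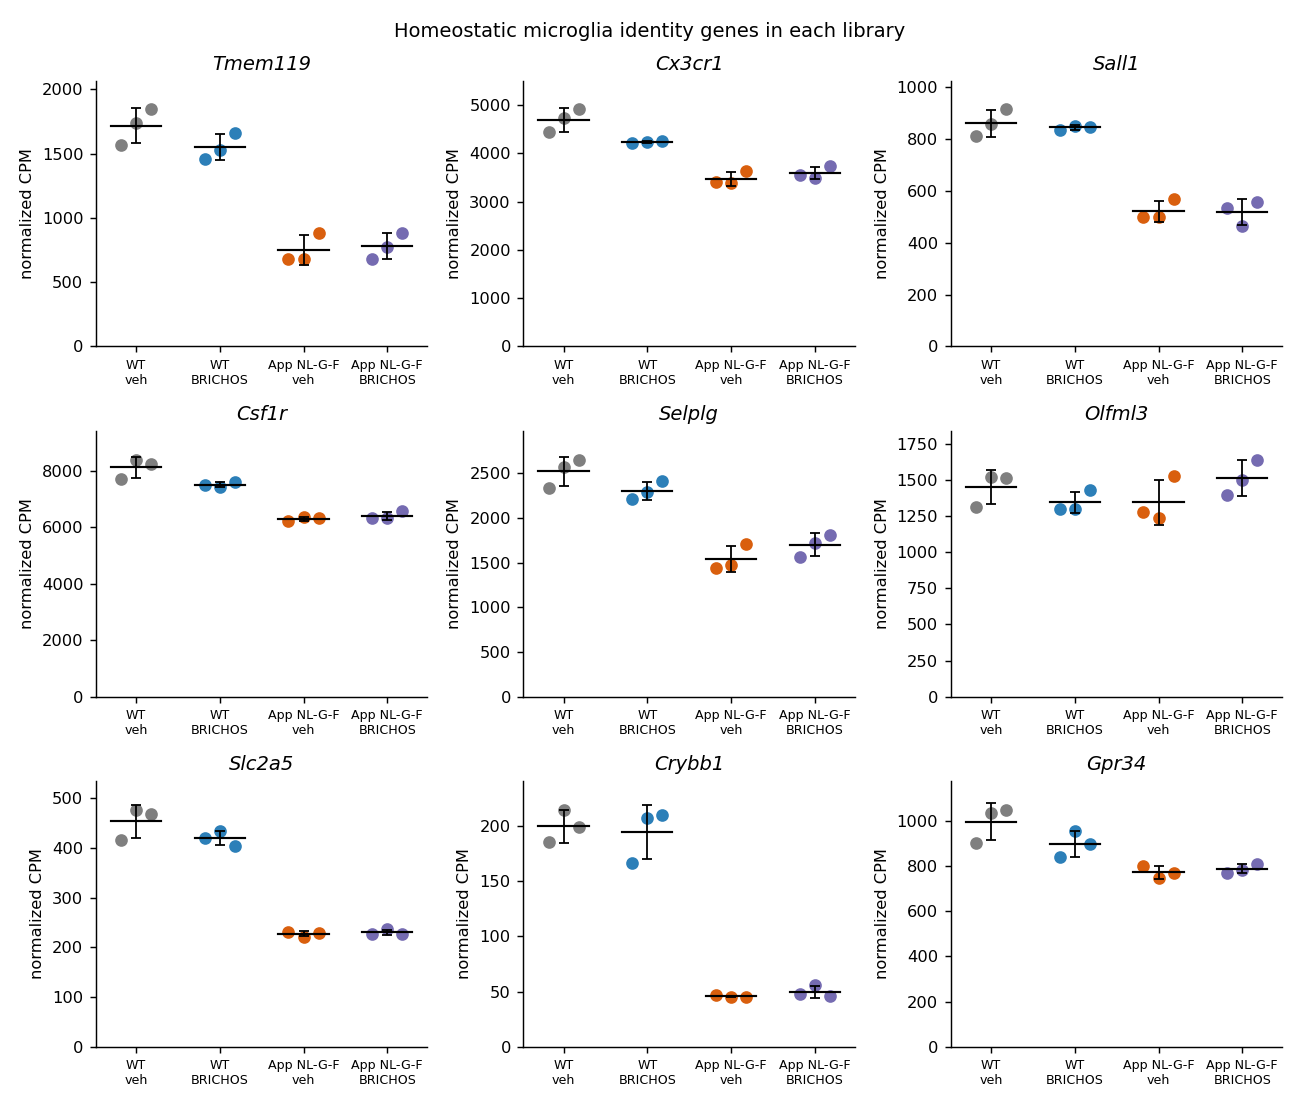
Normalized CPM of each gene (y axes start at 0) in the 12 libraries, by group on the x axis; points are libraries, the wide black line is the mean of 3 and the error bar its SD. For 8 genes all points of the App NL-G-F veh mice lie below those of the WT veh mice, from 45.2 to 46.5 against 185 to 215 for Crybb1, and Olfml3 overlaps.

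Sall1 (ENSMUSG00000031665, chr8:89027235-89044162, minus strand) encodes the zinc finger repressor that keeps microglia from taking on other macrophage programmes. Its level was 811, 857 and 914 CPM in WT veh mice and 498, 498 and 567 CPM in App NL-G-F veh mice. The groups did not overlap, and App NL-G-F replicate 3 was the highest of its group. The mean fell from 861 ± 51.8 to 521 ± 39.9 CPM (SD, n = 3), a log2 fold change of -0.72 (edgeR, SE 0.0784, adjusted p = 2.62e-05).

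Of the receptors, Csf1r (ENSMUSG00000024621, chr18:61100598-61132149, plus strand) encodes the receptor for CSF1 and IL-34 on which microglial survival depends. It was the most abundant of the 9 genes, with 7706, 8388 and 8247 CPM in WT veh mice and 6214, 6344 and 6307 CPM in App NL-G-F veh mice, and the groups were separate. The log2 fold change was -0.37 (edgeR, SE 0.0637, adjusted p = 0.000891), a change of -22.5% with a 95% interval from -29.6 to -14.6%. Exons of Csf1r share bases with Hmgxb3 on the opposite strand, which had 536 to 706 counts. As the strand setting of the authors' counting is not given in the sources used here, reads in the shared stretch may have been assigned to either gene.

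Cx3cr1 (ENSMUSG00000052336, chr9:119901616-120069879, minus strand) encodes the receptor for the neuronal chemokine fractalkine. Levels of 4432, 4736 and 4908 CPM in WT veh mice were set against 3399.7, 3377 and 3627 CPM in App NL-G-F veh mice, again without overlap. Its log2 fold change was -0.44 (edgeR, SE 0.0640, adjusted p = 0.000273). The annotated span of Cx3cr1 overlaps 9 other genes, of which only Gm33858, on the opposite strand and with 71 to 307 counts, shares exon bases with it.

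Gpr34 (ENSMUSG00000040229, chrX:13632089-13640858, plus strand) encodes a receptor for lysophosphatidylserine and lies within Cask on the opposite strand without shared exon bases. It had 902, 1038 and 1050.5 CPM in WT veh mice and 803, 746 and 769 CPM in App NL-G-F veh mice. All App NL-G-F values were lower, and the log2 fold change of -0.37 (edgeR, SE 0.0700, adjusted p = 0.0017) was the smallest of the 8 that passed, close to that of Csf1r.

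Tmem119 (ENSMUSG00000054675, chr5:113793729-113800516, minus strand) encodes a membrane protein used as a marker that separates microglia from infiltrating macrophages. Its values were 1570.3, 1739 and 1843 CPM in WT veh mice and 683, 680.4 and 884 CPM in App NL-G-F veh mice. Replicates 1 and 2 of the App NL-G-F mice were nearly equal and replicate 3 lay well above them, yet below every WT value. The mean fell from 1717 ± 138 to 749 ± 117 CPM (SD, n = 3), with a log2 fold change of -1.20 (edgeR, SE 0.120, adjusted p = 1.41e-05).

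Selplg (ENSMUSG00000048163, chr5:113818536-113832644, minus strand) encodes PSGL-1, a ligand of selectins on leucocytes, and lies 18.0 kb from Tmem119 on the same strand with 1 annotated gene in between. It had 2336, 2575 and 2653 CPM in WT veh mice and 1443, 1478 and 1705 CPM in App NL-G-F veh mice. As for Tmem119, replicate 3 was the highest of the App NL-G-F mice and the groups did not overlap. The log2 fold change was -0.71 (edgeR, SE 0.0845, adjusted p = 5.42e-05).

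Slc2a5 (ENSMUSG00000028976, chr4:150119283-150144169, plus strand) encodes the fructose transporter GLUT5, which in the brain is found on microglia. In WT veh mice it had 416, 477 and 469 CPM and in App NL-G-F veh mice 231, 221 and 229 CPM. The App NL-G-F libraries hardly differed among themselves, with a coefficient of variation of 2.38%. The log2 fold change was -1.0 (edgeR, SE 0.0571, adjusted p = 1.52e-07), a change of -49.9% with a 95% interval from -54.1 to -45.4%.

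Olfml3 (ENSMUSG00000027848, chr3:103722222-103738001, minus strand) encodes a secreted olfactomedin-domain protein. It had 1317, 1523 and 1513 CPM in WT veh mice and 1279.9, 1235 and 1525 CPM in App NL-G-F veh mice. App NL-G-F replicate 3 was above all WT values, and replicates 1 and 2 were below them. The log2 fold change was -0.11 (edgeR, SE 0.0951, adjusted p = 0.401), with a 95% interval from -0.32 to 0.10, or -19.7 to 7.26% in percent.

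Crybb1 (ENSMUSG00000029343, chr5:112255815-112269585, plus strand) encodes a beta-crystallin known as a structural protein of the eye lens. Its level was 185, 215 and 199 CPM in WT veh mice and 46.5, 45.4 and 45.2 CPM in App NL-G-F veh mice. It had the deepest fall of the 9 genes, with 45.7 ± 0.705 CPM (SD, n = 3) in App NL-G-F veh mice against 199.8 ± 14.8 CPM in WT veh mice. The narrow spread was that of App NL-G-F veh mice, with a coefficient of variation of 1.54%. It was 7.39% in WT veh, 12.6% in WT BRICHOS and 10.8% in App NL-G-F BRICHOS mice. The level was 4.37-fold lower, with a log2 fold change of -2.13 (edgeR, SE 0.102, adjusted p = 3.83e-08), and 0.668% of all tested genes had a lower log2 fold change.

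Astrocyte markers moved with this comparison. All 8 were higher in App NL-G-F veh than in WT veh mice, with a median log2 fold change of 2.36, and their part in the falls of the identity genes was not tested directly. When the mean log2 CPM of these 8 markers, called the astrocyte score, was added to the fit, 5 of the 9 genes were called, all lower. Over all 15425 tested genes 1916 were called with the score, against 5710 without it. Csf1r (adjusted p = 0.0967), Cx3cr1 (0.0756) and Gpr34 (0.0755) then missed the threshold in edgeR, with log2 fold changes of -0.36, -0.37 and -0.41. The markers of microglia and macrophages moved opposite to the identity genes, with 8 of 10 higher and only Itgam, which encodes CD11b, lower. Of the 7 border macrophage markers 6 were lower and none was higher, and of the 6 neutrophil markers all were lower. Every neutrophil marker nevertheless overlapped between the groups. Their summed level was 427, 342 and 34.2 CPM in WT veh and 13.6, 35.3 and 25.8 CPM in App NL-G-F veh mice. Endothelial markers were lower for 6 of 7, with a median log2 fold change of -0.79, and neuron markers for 4 of the 7 tested, with a median of -0.94. Lower calls were fewer for markers of pericytes and smooth muscle (2 of 6), oligodendrocytes (2 of 8), B and T cells (1 of 5 tested), monocytes (2 of 4) and ependyma and choroid plexus (0 of 6). The part of these lists in the falls of the identity genes was not tested.

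Scaling to 12 leucocyte genes in place of TMM was run as an alternative. These genes were not a constant reference between the strains. In the TMM fit 3 of the 12 were called higher and 4 lower between veh-treated strains, with log2 fold changes from -0.40 to 0.66. Between BRICHOS-treated strains 5 were called higher and 2 lower. With every library scaled to these 12 genes, the median of all tested genes moved by -0.15 on the log2 scale between veh-treated strains. The 9 genes stayed below 0, with a median log2 fold change of -0.86 against -0.17 for all tested genes, and Olfml3 then passed the test as well (log2 fold change -0.25, edgeR, adjusted p = 0.027).

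The same strain comparison in mice that had received the chaperone uses other libraries, although the fit shares 1 estimate of the spread. In App NL-G-F BRICHOS mice 7 of the 9 genes were lower than in WT BRICHOS mice and none was higher, while 21.8% of all tested genes were lower. Again 8 genes had no overlap between the groups, against 26.4% of all tested genes. The median log2 fold change was -0.44, against -0.04 for all tested genes, and Crybb1, Tmem119, Slc2a5 and Sall1 again had the largest falls.

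Markers of other cells moved with this comparison too. All markers tested were lower for pericytes and smooth muscle (6 of 6), ependyma and choroid plexus (6 of 6) and B and T cells (5 of 5), as were 6 of 7 for border macrophages, 6 of 7 for endothelium, 5 of 7 for neurons, 3 of 4 for monocytes and 4 of 6 for neutrophils. Of the markers of microglia and macrophages 8 of 10 were higher, and of those of astrocytes 1 of 8, while no oligodendrocyte marker was called in edgeR. The summed level of the 6 ependyma and choroid plexus markers was 3187 to 6658 CPM in WT BRICHOS mice and 637 to 952 CPM in App NL-G-F BRICHOS mice. That of the 7 border macrophage markers was 535 to 655 and 178 to 239 CPM. The part of these shifts in the values of the identity genes was not tested.

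Crybb1 had 166, 208 and 210.1 CPM in WT BRICHOS mice and 47.8, 56.1 and 45.9 CPM in App NL-G-F BRICHOS mice, with a log2 fold change of -1.96 (edgeR, SE 0.101, adjusted p = 5.66e-08). Tmem119 had 1461, 1529 and 1658 CPM against 683, 777 and 882 CPM in the same order of groups (-0.99, adjusted p = 5.59e-05 in edgeR), and Slc2a5 had 419.6, 433 and 405 CPM against 227, 236 and 227 CPM (-0.86, adjusted p = 4.34e-07 in edgeR). In each of the 3 genes the lowest WT library was above the highest App NL-G-F library. Sall1 had 835, 851 and 848 CPM in WT BRICHOS mice and 533, 463 and 558 CPM in App NL-G-F BRICHOS mice (-0.70, adjusted p = 2.91e-05 in edgeR). Selplg had 2212, 2291 and 2412 CPM against 1563, 1723 and 1814 CPM (-0.44, adjusted p = 0.00149 in edgeR).

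The abundant receptors showed smaller differences. Cx3cr1 had 4208, 4229.7 and 4263 CPM in WT BRICHOS mice and 3545, 3496 and 3735 CPM in App NL-G-F BRICHOS mice (-0.24, adjusted p = 0.0112 in edgeR). Csf1r had 7484, 7413 and 7584 CPM against 6317, 6324 and 6555 CPM (-0.23, adjusted p = 0.0135 in edgeR). A fit restricted to these groups called 5520 of 14800 tested genes, against 6560 of 15425 in the fit on all 12 libraries. In the restricted fit 5 of the identity genes were called, and Cx3cr1 (adjusted p = 0.0531) and Csf1r (0.082) missed the threshold in edgeR. Gpr34, with 839, 956 and 897 CPM in WT and 772, 784 and 811 CPM in App NL-G-F mice, just missed it (-0.19, edgeR, adjusted p = 0.0503), although its groups did not overlap, and it passed in 4 of 19 alternative analyses. Olfml3 had 1303, 1303 and 1432 CPM in WT and 1396, 1504 and 1642 CPM in App NL-G-F mice, with an overlap and a log2 fold change of 0.17 (edgeR, adjusted p = 0.175) that turned to -0.14 with leucocyte scaling, under which the median of all tested genes moved by -0.30.

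**Figure D2:**
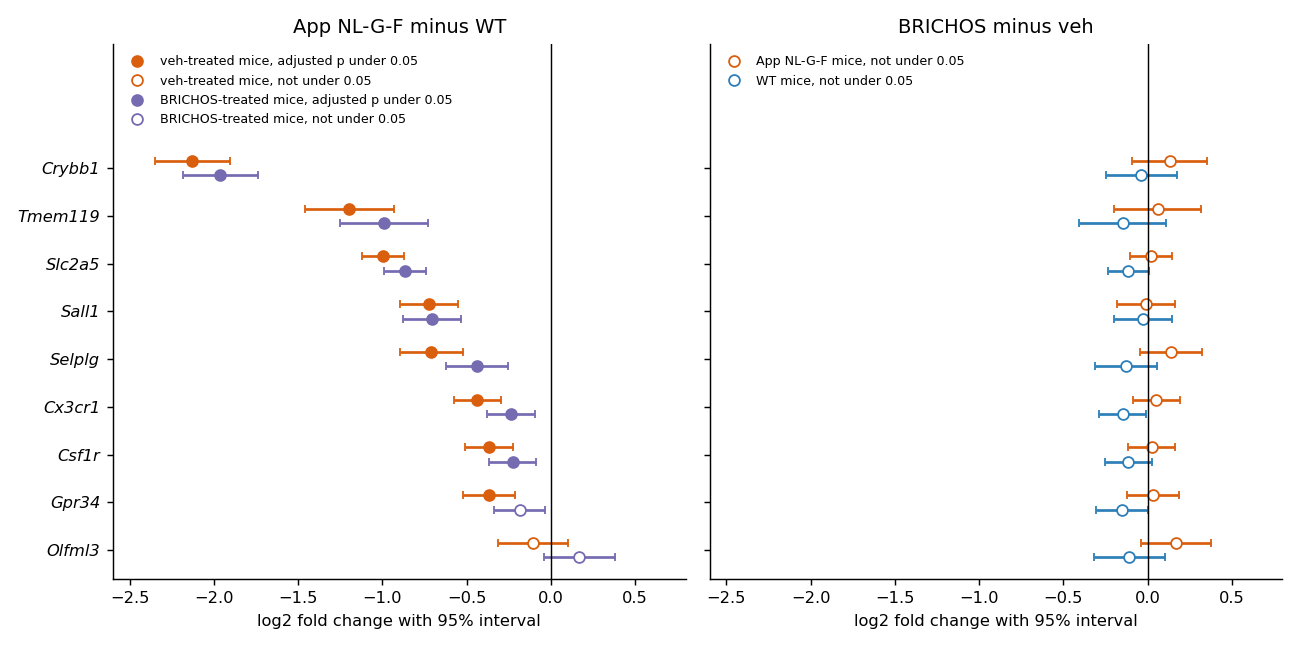
Log2 fold change (x axis) of each gene with its 95% interval from edgeR; the left panel shows App NL-G-F minus WT for veh- and BRICHOS-treated mice and the right panel BRICHOS minus veh within each strain, with filled points at an adjusted p-value under 0.05. The strain differences reach -2.13 for Crybb1, and the treatment differences lie between -0.15 and 0.17.

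The second question was whether the chaperone changed these genes within a strain. In App NL-G-F mice none of the 9 genes differed between BRICHOS and veh at an adjusted p-value under 0.05 (edgeR), none had an unadjusted p-value under 0.05, and DESeq2 called none either. Of all tested genes 0.00648% passed the adjusted and 10.8% the unadjusted threshold. Log2 fold changes were between -0.01 for Sall1 and 0.17 for Olfml3, and all 9 genes overlapped between the groups. In percent, the 95% intervals were from -7.10 to 10.4% for Slc2a5, from -7.62 to 12.1% for Csf1r, from -6.00 to 14.1% for Cx3cr1 and from -13.0 to 24.7% for Tmem119. Changes of about this size in either direction remain within the intervals, whereas the strain differences of Crybb1, Tmem119 and Slc2a5 were larger. The App NL-G-F veh libraries enter both this comparison and that of the strains, so these comparisons are not independent. With TMM, 8 of the 9 values were above 0, as were 52.0% of those of all tested genes, and the median of the 9 was 0.05. With leucocyte scaling, which moved the median of all tested genes by -0.08, only 3 were above 0, with a median of -0.03.

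Among the App NL-G-F mice the astrocyte markers were at 4509, 4033 and 1405 CPM in the veh-treated and 1887, 653 and 1245 CPM in the BRICHOS-treated replicates 1, 2 and 3. All 8 were lower after BRICHOS at an unadjusted p-value under 0.05 and none at an adjusted one in edgeR, and 6 of 7 endothelial markers were lower in the same way. The part of this shift in the values of the identity genes was not tested beyond the fit with the astrocyte score, which turned Tmem119 from 0.06 to -0.10 and called none of the 9 genes.

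In WT mice none of the 9 genes passed the adjusted threshold in edgeR or in DESeq2, and 0% of all tested genes did in edgeR. At an unadjusted p-value under 0.05, which 11.4% of all tested genes reached, only Cx3cr1 passed, with 4208, 4229.7 and 4263 CPM after BRICHOS against 4432, 4736 and 4908 CPM after veh (log2 fold change -0.15, edgeR, adjusted p = 0.413). Cx3cr1 and Csf1r were lower without overlap, and 9.19% of all tested genes showed this direction without overlap. The 9 log2 fold changes were all below 0, as were 50.9% of those of all tested genes. The 9 values lay between -0.15 for Gpr34 and -0.03 for Sall1, with a median of -0.11. With leucocyte scaling 7 remained below 0 and Sall1 (0.05) and Crybb1 (0.03) did not, while the median of all tested genes moved by 0.08. For Csf1r the 95% interval of the change was from -16.2 to 1.73%, for Gpr34 from -19.0 to 0.130% and for Slc2a5 from -15.2 to 0.616%.

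No marker of another cell type passed the adjusted threshold in WT mice in edgeR, but several lists had higher values after BRICHOS. For border macrophages 5 of 7 markers were higher at an unadjusted p-value under 0.05 and 6 of 7 had no overlap, with a median log2 fold change of 0.44. For ependyma and choroid plexus 4 of 6 passed the unadjusted threshold, with a median of 1.29, as did 3 of the 5 tested for B and T cells and 2 of 4 for monocytes. The part of these shifts in the values of the identity genes was not tested.

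A contrast of the same fit tested whether the strains responded differently to the chaperone. The differences, App NL-G-F minus WT, were all above 0 on the log2 scale, from 0.02 for Sall1 to 0.28 for Olfml3. So were 52.1% of all tested genes, all 10 microglia and macrophage markers (median 0.20) and all 12 leucocyte genes used for scaling (median 0.14). None of the 9 genes passed the adjusted threshold in edgeR or DESeq2, and 0.00648% of all tested genes did in edgeR. At an unadjusted p-value under 0.05, which 14.8% of all tested genes reached, Selplg (0.27, edgeR, adjusted p = 0.325) and Cx3cr1 (0.20, edgeR, adjusted p = 0.336) passed. With leucocyte scaling 6 of the 9 differences were above 0, and the median of all tested genes moved by -0.16.

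Replicates of a group did not vary independently from gene to gene. Each gene's log2 CPM was set relative to the mean of its own group, and the deviations were correlated across the 12 libraries for all 36 pairs of genes. The coefficients were between -0.30 and 0.98 with a median of 0.55, and 34 of 36 were above 0. The highest belonged to Tmem119 and Selplg (0.98), Tmem119 and Olfml3 (0.96) and Selplg and Olfml3 (0.96), and the lowest to Sall1 and Crybb1 (-0.30). Olfml3 therefore varied within groups alongside Tmem119 and Selplg, while it was the gene that did not fall with them between the strains. All points share the scaling of their library, and the coefficients are given as a description.

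In App NL-G-F veh replicate 3, Tmem119 was 0.25, Olfml3 0.19, Selplg 0.15 and Sall1 0.12 above the mean of the group on the log2 scale, while Csf1r, Slc2a5, Crybb1 and Gpr34 deviated by -0.02 to 0.01. That library had the fewest astrocyte marker counts of its group, 1405 CPM against 4033 and 4509 CPM. In WT veh mice the library with the fewest, replicate 3 at 427 CPM, also had Tmem119 above the mean, by 0.10. In the BRICHOS groups the libraries with the fewest were App NL-G-F replicate 2 (653 CPM) and WT replicate 1 (428 CPM). Tmem119 deviated there by 0.0008 and -0.08. In each of the 4 groups Tmem119 was highest in replicate 3, by 0.10 in both WT groups, 0.25 in App NL-G-F veh and 0.18 in App NL-G-F BRICHOS mice. In WT veh replicate 1 all 9 genes were below the mean of the group, with deviations of -0.14 to -0.07. That library had the most astrocyte marker counts of its group, 603 CPM. The part of astrocyte RNA in these deviations was not tested. Without App NL-G-F veh replicate 3 the fit called the same number of identity genes in the comparison of veh-treated mice, 8 of 9.

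**Figure D3:**
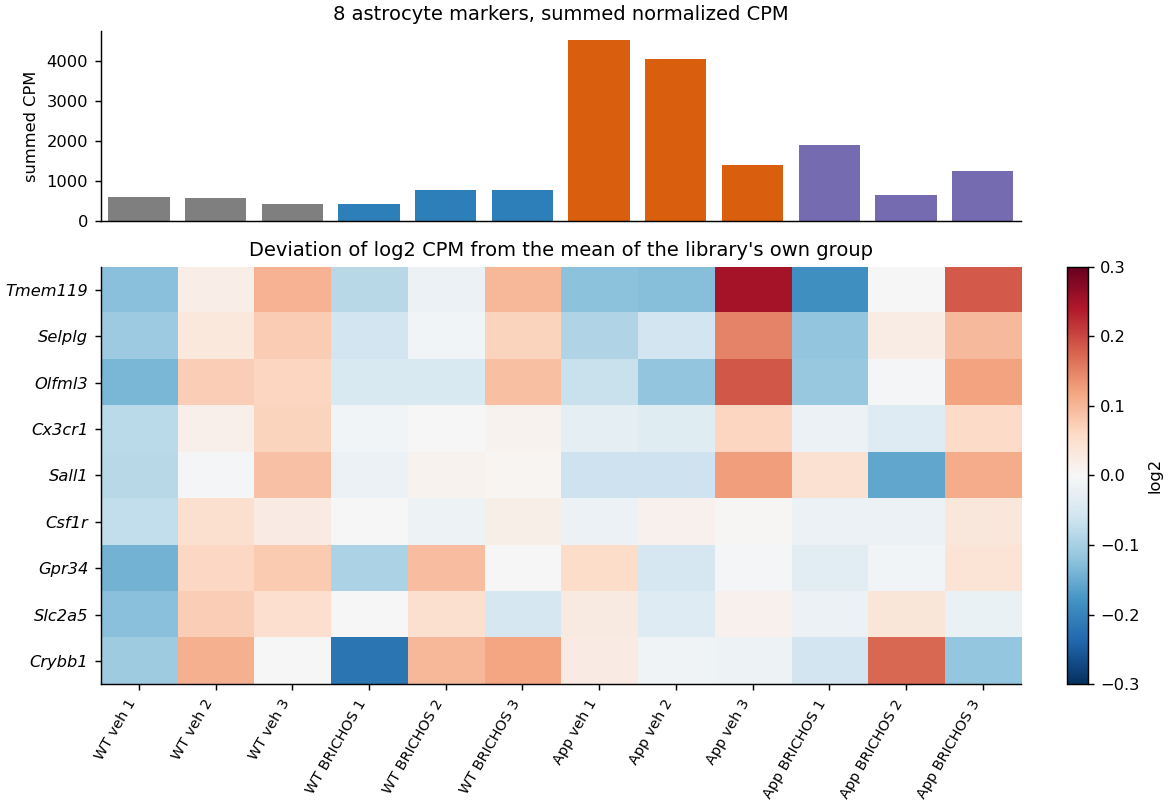
Top, summed CPM of 8 astrocyte markers in each library (bars start at 0); bottom, deviation of each gene's log2 CPM from the mean of the library's own group, with red above and blue below the mean. In App veh replicate 3 Tmem119 reaches 0.25 above the mean while the astrocyte markers are at 1405 CPM. In App BRICHOS replicate 2 Tmem119 is at 0.0008 with the markers at 653 CPM.

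The ligands of the receptors in the set were followed in the same libraries. Csf1, the growth factor bound by Csf1r, was at 152, 152 and 127 CPM in WT veh mice and 1775, 2079.8 and 1703 CPM in App NL-G-F veh mice. The groups were far apart and the log2 fold change was 3.69 (edgeR, SE 0.15, adjusted p = 1.17e-08), while the receptor fell by 0.37 on the log2 scale. Il34, the other ligand of that receptor, was low, with 1.64, 1.36 and 1.86 CPM against 1.42, 0.853 and 1.19 CPM (log2 fold change -0.48, edgeR, adjusted p = 0.282). Cx3cl1, which encodes fractalkine, was at 18.6, 19.6 and 15.3 CPM in WT veh mice and 7.90, 9.39 and 8.22 CPM in App NL-G-F veh mice (-1.07, edgeR, adjusted p = 0.00031). Both Cx3cl1 and its receptor were thus lower. The 8 neuron markers moved with Cx3cl1, with a summed level of 20.6 to 28.0 CPM in WT veh mice and 8.55 to 10.8 CPM in App NL-G-F veh mice, and their part in its fall was not tested. Selp and Sele, genes of selectins that bind PSGL-1, did not pass the filter on low counts.

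With BRICHOS no ligand passed the adjusted threshold in either strain. In App NL-G-F mice Cx3cl1 went from 7.90, 9.39 and 8.22 CPM with veh to 5.29, 3.33 and 4.61 CPM with BRICHOS, without overlap (log2 fold change -0.95, edgeR, adjusted p = 0.212). In WT mice it was 20.5, 25.5 and 23.6 CPM with BRICHOS, above every veh-treated library (0.38, edgeR, adjusted p = 0.393). The difference of the treatment effects was -1.33 (edgeR, adjusted p = 0.134). DESeq2, edgeR without the filter and edgeR without App NL-G-F veh replicate 3 each called 1 ligand lower in App NL-G-F mice. Csf1 was at 123, 144 and 175 CPM in WT BRICHOS mice and 1625, 2046 and 1693 CPM in App NL-G-F BRICHOS mice, and did not pass the test for the treatment in either strain.

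**Figure D4:**
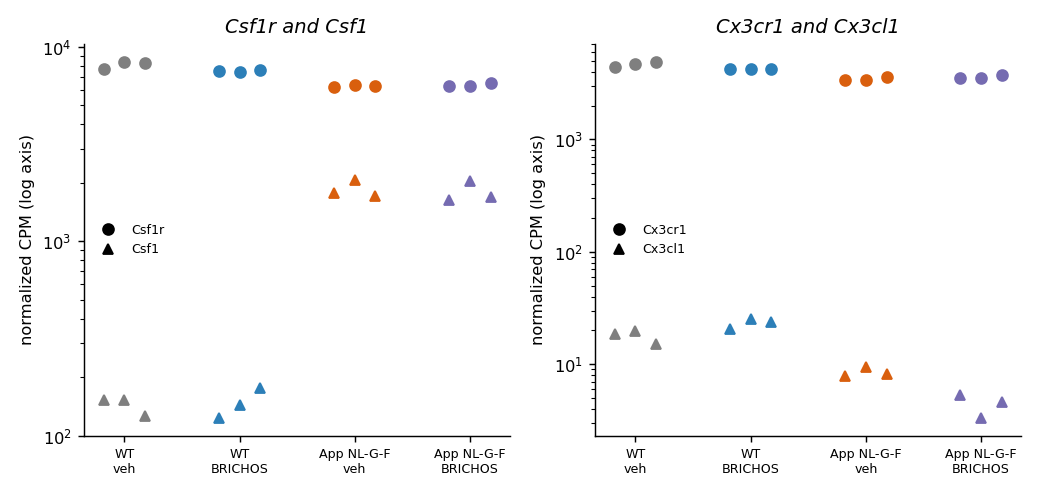
Normalized CPM (log axis) of the receptor genes Csf1r and Cx3cr1 (circles) and of a ligand of each (triangles) in every library, by group. Csf1 is at 127 to 152 CPM in WT veh mice and 1703 to 2079.8 CPM in App NL-G-F veh mice, whereas Csf1r changes far less.

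Other genes of the homeostatic programme were read in the same way. Of 28 further homeostatic microglia genes 19 were lower and 4 higher in App NL-G-F veh than in WT veh mice, with a median log2 fold change of -0.46, while 37% of all tested genes were called in either direction. The largest falls were those of Ecscr (-1.90), Txnip (-1.28), which encodes a thioredoxin-binding regulator of glucose uptake, and Upk1b (-1.26). P2ry12, the ADP receptor that guides microglial processes and was picked here after its value was seen, fell from 2742 ± 118 to 1318 ± 34.0 CPM (SD, n = 3; log2 fold change -1.06, edgeR, adjusted p = 1.31e-07). Those that were higher include Fcrls (0.41), Itgb5 (0.32) and Pros1 (0.14), also named after their values were seen. With leucocyte scaling 23 of the 28 were lower and 1 was higher. In BRICHOS-treated mice 16 were lower and 4 higher, with 42.5% of all tested genes called in either direction. Within a strain no gene of the list passed the adjusted threshold in edgeR for BRICHOS against veh. At an unadjusted p-value under 0.05 in edgeR, 4 of the 28 were higher and 0 lower in App NL-G-F mice. Of all tested genes 3.18% were higher and 7.67% lower there. In WT mice 1 of the 28 was higher and 8 were lower, against 6.55 and 4.83% of all tested genes.

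Transcription factors of microglial identity did not move in 1 direction. Of 12 factors 3 were higher and 4 lower in App NL-G-F veh mice, and the median log2 fold change was 0.01, while 20.1% of all tested genes were higher and 16.9% lower. Maf fell by 1.08 on the log2 scale, from 529 ± 20.1 to 249.8 ± 17.4 CPM (SD, n = 3; edgeR, adjusted p = 1.17e-06). Bhlhe41 (0.75, adjusted p = 0.000155) and Irf8 (0.50, adjusted p = 0.000183), a factor needed for microglial development, rose in edgeR. The others that passed, named after their values were seen, were Mef2c (0.32), Mef2a (-0.44), Ikzf1 (-0.35) and Smad3 (-0.32). Spi1, the gene of the myeloid master regulator PU.1, had a log2 fold change of -0.18 (edgeR, adjusted p = 0.109). Sall1 was thus lower while the level of PU.1 messenger RNA did not pass the test, with a 95% interval from -0.36 to 0.00 for Spi1.

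Of the TGF-beta pathway, which upholds the homeostatic programme, 9 of 10 listed symbols matched a counted gene, and all 9 were tested. Of these 2 were higher and 2 lower in App NL-G-F veh mice, where 37% of all tested genes were called. The receptor chains went opposite ways, with Tgfbr1 at 1609 ± 44.0 CPM in WT veh and 1167 ± 72.1 CPM in App NL-G-F veh mice (log2 fold change -0.46, edgeR, adjusted p = 0.000101) and Tgfbr2 at 614 ± 36.5 and 963 ± 60.3 CPM (0.65, edgeR, adjusted p = 1.12e-05; SD, n = 3). Nrros, whose product holds latent TGF-beta on microglia, was higher (0.27, edgeR, adjusted p = 0.0331), and Itgav, named after its value was seen, was lower (-0.22). With leucocyte scaling 1 gene of the list was higher and 4 were lower. The list held 2 calls, 1 in each direction, without WT veh replicate 1, 2 or 3 or without App NL-G-F veh replicate 1 or 2, and also with the astrocyte score in the fit. No gene of this list or of the transcription factors passed the adjusted threshold in edgeR for BRICHOS against veh in either strain.

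Relatives of the identity genes were listed for comparison, and 7 of 11 passed the filter, of which 2 were higher and 3 lower, where 37% of all tested genes were called. With the astrocyte score in the fit 1 was higher and 2 were lower. Among them P2ry10 (-1.83, adjusted p = 0.0213), Olfml2b (-1.15, adjusted p = 1.57e-05) and Cryba4 (-0.82), the last named after its value was seen, were lower in edgeR. The glucose transporter genes Slc2a3 (0.96, adjusted p = 0.00294) and, also seen before it was named, Slc2a1 (0.52) were higher, the reverse of the fructose transporter gene Slc2a5. Cryba4 and Crybb1 encode crystallins and both fell, and Olfml2b fell where Olfml3 did not pass the test. For contrast, all 15 disease-associated microglia genes were higher in App NL-G-F veh mice, with a median log2 fold change of 3.5. The largest rises were those of Gpnmb (7.05), Cst7 (6.80), which encodes the protease inhibitor cystatin F, and Spp1 (5.96), which encodes osteopontin. None of the 15 passed the adjusted threshold for BRICHOS against veh in either strain in edgeR, and those with an unadjusted p-value under 0.05 numbered 1 in App NL-G-F and 3 in WT mice, against 10.8 and 11.4% of all tested genes.

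**Figure D5:**
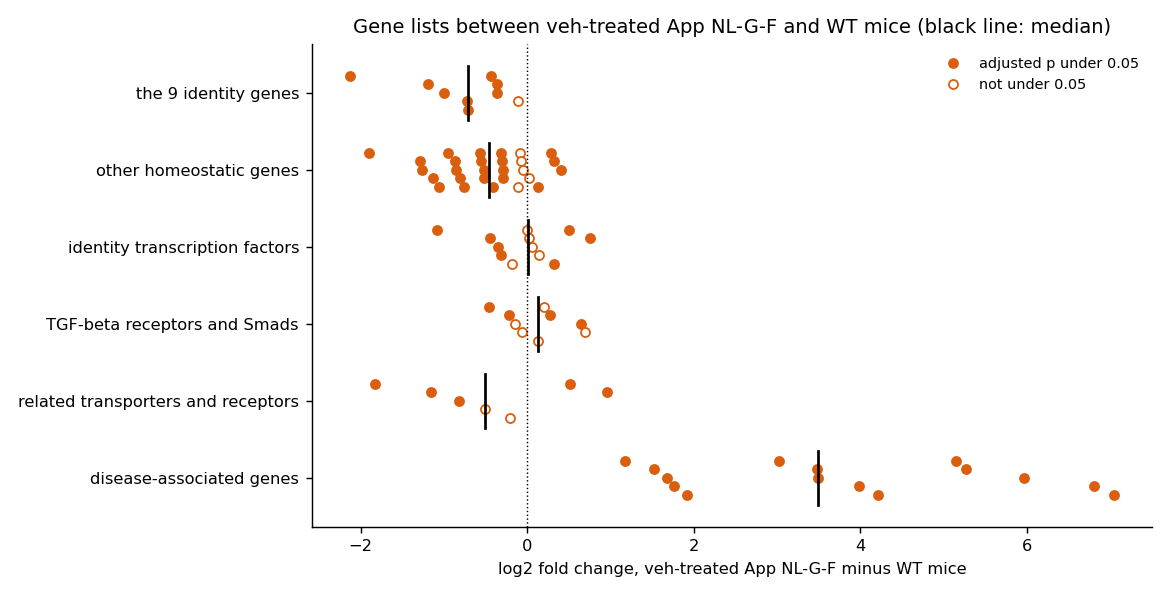
Log2 fold change (x axis) between WT and App NL-G-F veh mice for each tested gene of the listed groups; filled points have an adjusted p-value under 0.05 and the black line is the median of a list. The 9 identity genes have a median of -0.71, the other homeostatic genes -0.46 and the disease-associated genes 3.5.

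Genes whose level followed the identity genes most closely were sought among all tested genes, by the correlation of log2 CPM across the 12 libraries. The mean profile of the 9 genes was most like those of Lrrc3 (r = 0.991), Gm15513 (0.991), Ifngr1 (0.990), Ppp6r1 (0.989) and 1700017B05Rik (0.987). With leucocyte scaling 3 of these 5 were again among the first 5. Of the single genes, Tmem119 was most like Man1a (r = 0.996), Selplg most like Gm15513 (0.994), Slc2a5 most like Cmtm6 (0.997) and Crybb1 most like Grap (0.997). Cx3cr1 was most like Tgfbr1 (0.991), Sall1 like Klf3 (0.993), Csf1r like Serinc3 (0.993), Gpr34 like Rprd1b (0.967) and Olfml3 like Slain2 (0.954). The 12 libraries share their scaling and fall into 2 strains, and these values are given as a description.

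RefSeq promoter windows of GRCm38.p6 hold 250 bases before and 50 after a transcription start. They were used for 5 of the 9 genes (Crybb1, Cx3cr1, Olfml3, Slc2a5 and Sall1, 7 windows in all). Promoters of Csf1r, Tmem119, Selplg and Gpr34 were not searched, so nothing is said about their motifs. The 250 bases before the start are printed for the gene with the deepest fall, for a receptor gene that fell less and for the gene that did not pass the test. Capitals mark the motif matches.
Crybb1, chr5:112255570-112255819, plus strand: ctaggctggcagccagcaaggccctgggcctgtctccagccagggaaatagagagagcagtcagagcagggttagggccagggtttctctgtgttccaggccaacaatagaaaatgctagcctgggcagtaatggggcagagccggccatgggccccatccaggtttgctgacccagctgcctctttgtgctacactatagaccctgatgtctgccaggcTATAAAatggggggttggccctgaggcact
Cx3cr1, chr9:120068297-120068546, minus strand: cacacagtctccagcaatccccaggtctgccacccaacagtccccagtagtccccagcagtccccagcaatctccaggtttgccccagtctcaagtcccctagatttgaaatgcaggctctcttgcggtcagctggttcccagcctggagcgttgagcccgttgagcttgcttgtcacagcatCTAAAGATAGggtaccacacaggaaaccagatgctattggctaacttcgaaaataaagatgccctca
Olfml3, chr3:103738002-103738251, minus strand: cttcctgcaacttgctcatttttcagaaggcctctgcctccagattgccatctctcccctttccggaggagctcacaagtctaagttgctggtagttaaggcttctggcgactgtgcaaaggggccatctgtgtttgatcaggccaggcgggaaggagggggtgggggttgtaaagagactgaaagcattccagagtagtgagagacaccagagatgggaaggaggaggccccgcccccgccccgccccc
The windows were searched on both strands for 6 motifs. These were the PU.1 motif GAGGAAG, the C/EBP motif TTGCNNAA, the AP-1 motif TGANTCA, the IRF motif GAAANNGAAA, the TATA box TATAAA and a loose MEF2 pattern. The loose MEF2 pattern was CTANNNNTAG, with any base at N and not only A or T. Crybb1 holds a TATA box whose first base lies 30 bases before the start, a motif held by 13.6% of 32851 windows of this length. Cx3cr1 holds a match to the loose MEF2 pattern, CTAAAGATAG, which has a G in its middle and begins 67 bases before the start. The same loose pattern is held by 3.69% of windows. None of the 7 windows holds the PU.1 (13.6% of all windows), C/EBP (10.8%), AP-1 (7.81%) or IRF (3.44%) letters, and Olfml3, Slc2a5 and Sall1 hold none of the 6. The G and C content of the 7 windows was 54.3 to 79.7%, against a median of 52.7% over all windows. Such matches describe the sequence only, and no binding was measured.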

How the data were processed

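Data were 12 RNA-sequencing libraries of CD11b-positive cortical cells, each from another mouse, 3 in each of 4 groups. The authors trimmed reads with Cutadapt, aligned them to GRCm38 with STAR (2.6.1d in the submitters' processing notes, another version in the study's methods), counted them with featureCounts 1.5.1 and deposited the raw counts, which are not normalized. Strand setting and treatment of shared reads are not given in the sources used here. Libraries were assigned to groups by title. Of 55487 genes 55141 had a symbol and 26314 had no count.

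Software was edgeR 4.0.16, DESeq2 1.42.0 and limma 3.58.1 in R 4.3.3, and pandas 2.3.3 and matplotlib 3.10.9 in Python 3.11.15. The filter (filterByExpr, minimum count 10) kept 15425 genes. TMM factors and an edgeR quasi-likelihood fit with 1 mean per group on all 12 libraries were used, and p-values were adjusted by Benjamini and Hochberg over all tested genes. Called means an adjusted p-value under 0.05, and intervals are at 95%. Log2 CPM used a prior count of 2. Chi-square statistics between libraries of a group were 5.64 to 33.4 per degree of freedom, so none was a repeat of another. The scripts were tested on simulated data.

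The 9 genes and the lists were chosen with earlier results of these data known. Genes were named by rule: the 9 genes, each ligand, the 3 largest called changes between veh-treated strains in each other list, and the genes most alike by Pearson's r. A few genes under this rule or in the lists are not reported here. Alternatives were DESeq2 size factors, scaling to 12 leucocyte genes (Itgam, Ptprc, Laptm5, Cd53, Arhgdib, Coro1a, Ptpn6, Lcp1, Ptpn18, Rac2, Lyn and Was), DESeq2's Wald test, no filter, the replicate block, the astrocyte score, only the compared groups, and each library left out.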

Additional observations from a re-analysis of the deposited data

How the results depend on the processing

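The number of the 9 genes called was between 5 and 9 over all alternatives for the strains without BRICHOS (8 as reported) and for those with it (7 as reported), and it was 0 in every alternative for both treatment comparisons and for their difference. The one count that moved by more than 1.5 times was the 5 called with the astrocyte score as a covariate in veh-treated mice. Leaving out each library in turn gave 8 calls for veh-treated mice and 7 to 8 for BRICHOS-treated mice. Gpr34 in BRICHOS-treated mice was called lower without WT veh replicate 1 (-0.18, edgeR, adjusted p = 0.0294), without WT BRICHOS replicate 1 (-0.23, edgeR, adjusted p = 0.0318) and with leucocyte scaling (-0.49, edgeR, adjusted p = 3.1e-05). Signs changed only in differences that were not called in the main fit. Olfml3 was called in 1 alternative of each strain comparison and had the opposite sign in another. It was called lower between veh-treated strains with leucocyte scaling (-0.254, edgeR, adjusted p = 0.027). Between BRICHOS-treated strains it was called higher with the replicate block (0.168, edgeR, adjusted p = 0.0484). With leucocyte scaling the log2 fold change for BRICHOS in App NL-G-F mice became -0.0241 for Tmem119, -0.0292 for Cx3cr1, -0.0551 for Csf1r, -0.0625 for Slc2a5 and -0.0510 for Gpr34, that in WT mice 0.0502 for Sall1 and 0.0339 for Crybb1, that between BRICHOS-treated strains -0.136 for Olfml3, and the difference of the treatment effects -0.136 for Sall1, -0.0177 for Csf1r and -0.0258 for Slc2a5. With the astrocyte score it became 0.106 for Olfml3 between veh-treated strains, -0.104 for Tmem119 and -0.0176 for Slc2a5 for BRICHOS in App NL-G-F mice, and -0.00405 for the difference of Tmem119. For Sall1 and BRICHOS in App NL-G-F mice DESeq2 size factors gave 0.00936 and DESeq2's Wald test 0.00936. Leaving out libraries gave ranges across 0 for BRICHOS in App NL-G-F mice in Tmem119 (-0.0374 to 0.196), Sall1 (-0.0643 to 0.0739) and Slc2a5 (-0.00102 to 0.0480), in WT mice in Sall1 (-0.0722 to 0.0154) and Crybb1 (-0.0961 to 0.0598), and for the difference in Sall1 (-0.0337 to 0.0979). The cause was not tested. Over all tested genes, leucocyte scaling moved the share below 0 from 52.1 to 65.0% between veh-treated and from 53.9 to 78.4% between BRICHOS-treated strains, from 48.0 to 70.4% for BRICHOS in App NL-G-F mice, from 50.9 to 30.4% in WT mice and from 47.9 to 76.9% for the difference. Calls over all genes for BRICHOS in App NL-G-F mice, in WT mice and for the difference were 1, 0 and 1 in edgeR, 124, 85 and 249 in DESeq2's Wald test and 25, 12 and 107 without the filter. Without App NL-G-F veh replicate 3 they were 162, 1 and 88, and without WT veh replicate 3 the difference had 62. With the astrocyte score 1916 genes were called between veh-treated strains, against 5710. Replicate numbers were not treated as pairs in the main fit. Correlations of equally numbered libraries' deviations were -0.0148 to 0.227, and no comparison had all above 0.1. Libraries with different numbers were not compared, so this check cannot decide whether the numbers pair the libraries. The mean deviation of the 9 genes was below 0 in replicate 1 of every group (-0.109 to -0.0312) and above 0 in replicate 3 (0.0401 to 0.0857). With the replicate block 8 of the 9 genes were called between veh-treated strains, 9 between BRICHOS-treated strains (8 lower, and Olfml3 higher by 0.17, edgeR, adjusted p = 0.0484) and 0 for BRICHOS in either strain, with 5991, 6822, 0 and 0 calls over all genes. With 3 libraries in a group, changes smaller than the intervals given could not be resolved, and Il34 is limited by few counts.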
